A study of Mus musculus with 57 samples.

Results

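Hepatocytes, the parenchymal cells of the liver, make most of the proteins dissolved in blood plasma. The 8 genes described here, Alb, Afp, Ttr, Apoa1, Apoa2, Apob, Fgb and Ahsg, encode abundant members of that group. They were taken by gene symbol, as 8 of the 56860 genes listed in each deposited table, and the rule used no threshold on a measured value. The question was at what level these transcripts were found in embryonic tissues other than the liver, and whether that level differed between wt and Hoxa5-/- embryos.

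Alb encodes albumin, the main carrier and osmotic protein of plasma, and Afp encodes alpha-fetoprotein, its fetal relative. Ttr encodes transthyretin, which carries thyroid hormone and, through retinol-binding protein, vitamin A. Apoa1 and Apoa2 encode the main proteins of high-density lipoprotein, and Apob encodes the large structural protein of very-low-density and low-density lipoprotein. Fgb encodes the beta chain of fibrinogen, the clot precursor, and Ahsg encodes fetuin-A, an inhibitor of calcification. In the embryo several of these genes are also known from the visceral endoderm of the yolk sac and from the intestine, and Ttr is a classical product of the choroid plexus of the brain. In the fetus the liver lies directly beneath the diaphragm and is also a site of blood cell formation. The promoters of such genes are known for binding liver-enriched factors, among them HNF4, C/EBP and FOXA proteins.

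In the GRCm39 assembly with the authors' annotation, Alb (ENSMUSG00000029368.11) lies on chromosome 5 at 90608756–90624461 on the plus strand. Afp (ENSMUSG00000054932.7) follows it on the same strand at 90638596–90656766, and the 14134 bases between them hold 0 whole annotated genes. Apoa1 (ENSMUSG00000032083.9) lies on chromosome 9 at 46139878–46141764, Apoa2 (ENSMUSG00000005681.13) on chromosome 1 at 171052623–171053948 and Apob (ENSMUSG00000020609.15) on chromosome 12 at 8027648–8066835, all on the plus strand. Fgb (ENSMUSG00000033831.6) lies on the minus strand of chromosome 3 at 82947448–82957170 and Ahsg (ENSMUSG00000022868.7) on the plus strand of chromosome 16 at 22710027–22718199. All 8 are protein-coding, and their counted exon lengths run from 537 bases for Apoa2 to 13934 for Apob. Opposite-strand genes overlap Afp (Gm43449) and Ahsg (Gm30505). The strand setting of the counting is not given in the sources used here, so reads in these overlaps cannot be assigned with certainty, but the overlapping genes held at most 116 and 20 counts in any diaphragm library.

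The gene identifier of Ttr is ENSMUSG00000061808.5. The 150 bases just before the RefSeq start are shown for the neighbouring relatives Alb and Afp and for Fgb, whose windows each held a C/EBP motif (TTGCNNAA). Sequences are from RefSeq's GRCm38.p6 table, placed in GRCm39 by exact match at chr5:90608579-90608728 for Alb, chr5:90638423-90638572 for Afp and, on the minus strand, chr3:82957171-82957320 for Fgb. Capitals mark that motif, and in Afp also TATAAA:
Alb: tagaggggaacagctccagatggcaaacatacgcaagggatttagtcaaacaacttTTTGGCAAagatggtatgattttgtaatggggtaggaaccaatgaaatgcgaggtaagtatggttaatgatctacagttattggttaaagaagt
Afp: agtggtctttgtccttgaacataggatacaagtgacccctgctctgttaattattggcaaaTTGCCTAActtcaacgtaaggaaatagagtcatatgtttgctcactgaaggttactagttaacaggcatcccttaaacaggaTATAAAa
Fgb: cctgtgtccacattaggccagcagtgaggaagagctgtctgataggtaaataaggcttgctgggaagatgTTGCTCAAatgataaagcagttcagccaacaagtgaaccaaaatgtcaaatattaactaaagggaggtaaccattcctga

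The C/EBP motif spanned bases -94 to -87 relative to the start in Alb, on the opposite strand, -89 to -82 in Afp and -80 to -73 in Fgb. Of the 8 members, 7 were in the promoter table. Over the 250 bases before each start, searched on both strands, the C/EBP motif was found in 6 of the 7, in all but Apoa1, where 9.57% of 32536 promoters of the same length held it. Apoa2 entered with 2 starts, and its C/EBP and HNF4 matches lay only before the start upstream of the annotated gene start. TATAAA was found in 3 of 7 members (Afp, Apoa2, Apob) against 12.3% of promoters. An HNF4 motif (AAAGTCCA, 1.02% of promoters) and a FOXA motif (TGTTTAC, 3.17%) were each found in 1 member, Apoa2. These are matches of letters only, no binding was measured, and the motifs overlapped no other motif in the 3 windows printed.

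Bulk RNA-seq, which counts the mRNA fragments of a whole tissue piece, was available for 57 libraries from mouse embryos of the 129/Sv background. Wt and Hoxa5-/- embryos were compared in trachea, lung and diaphragm at stage E15.5 (E for embryonic day), in lung at E12.5 and in somites at E12.5, with 4 libraries for each genotype. There were 4 wt but 3 Hoxa5-/- libraries for E10.5 somites. The brown fat pad between the shoulder blades, called interscapular brown adipose tissue (iBAT), had 5 of each at E18.5. The somite libraries came from trunk segments of the neck and upper thorax, cleared of neural tube, forelimbs and thoracic organs. The Hoxa5-/- allele (Hoxa5tm1Rob) is a constitutive null, made by insertion of a neomycin cassette, so gene function is lost in the whole embryo and the transcript can still yield reads. Hoxa5 itself was lower in Hoxa5-/- libraries in all 7 contexts, by a log2 fold change of -0.92 in E10.5 somites to -1.94 in iBAT, and in each context the highest Hoxa5-/- library lay below the lowest wt library. Respiratory tissues and somites with iBAT were sequenced at separate centres with different read layouts, so differences between these 2 sets cannot be told apart from the centre. Totals ran from 18369905 to 72991481 counts per library.

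The tissue labels held against markers in this respect: summed TPM (transcript abundance corrected for gene length and scaled to the same total in each library) of 8 skeletal muscle genes were 17920 to 40400 in diaphragm and at most 5981 elsewhere, 6 lung epithelial genes reached 1782 to 9630 in E15.5 lung, and 6 brown fat genes 13661 to 20217 in iBAT against at most 74.4 elsewhere. None of these tissues is liver. A few libraries stood apart from the rest of their group in some or all of the 8 genes, namely diaphragm wt replicate 3, lung E15.5 wt replicate 1 and Hoxa5-/- replicate 3, trachea wt replicate 1 and Hoxa5-/- replicate 4, lung E12.5 wt replicate 1 and Hoxa5-/- replicate 1, and iBAT Hoxa5-/- replicate 3. The 4 Hoxa5-/- diaphragm libraries were widely spread, with replicates 3 and 4 high and replicate 2 low. Tested differences that rest on a single library are given with and without it.

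Transcripts of the 8 genes were most abundant in the E15.5 diaphragm. Their summed level there was 1894, 1786, 10090 and 2169 TPM in wt replicates 1 to 4 and 2402, 408, 12353 and 10520 TPM in Hoxa5-/- replicates 1 to 4. The genes took between 0.0258% and 0.833% of all counts of these libraries. In trachea the sum was between 2.64 and 123 TPM, in E15.5 lung between 4.67 and 525 TPM and in E12.5 lung between 2.79 and 52.8 TPM. In somites it did not exceed 5.36 TPM at E10.5 and 4.14 TPM at E12.5, and in iBAT it was at most 1.49 TPM in 9 of the 10 libraries and 33.5 TPM in the tenth. A bulk level of this kind cannot tell a small number of cells with much of the RNA from many cells with little of it.

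**Figure D1:**
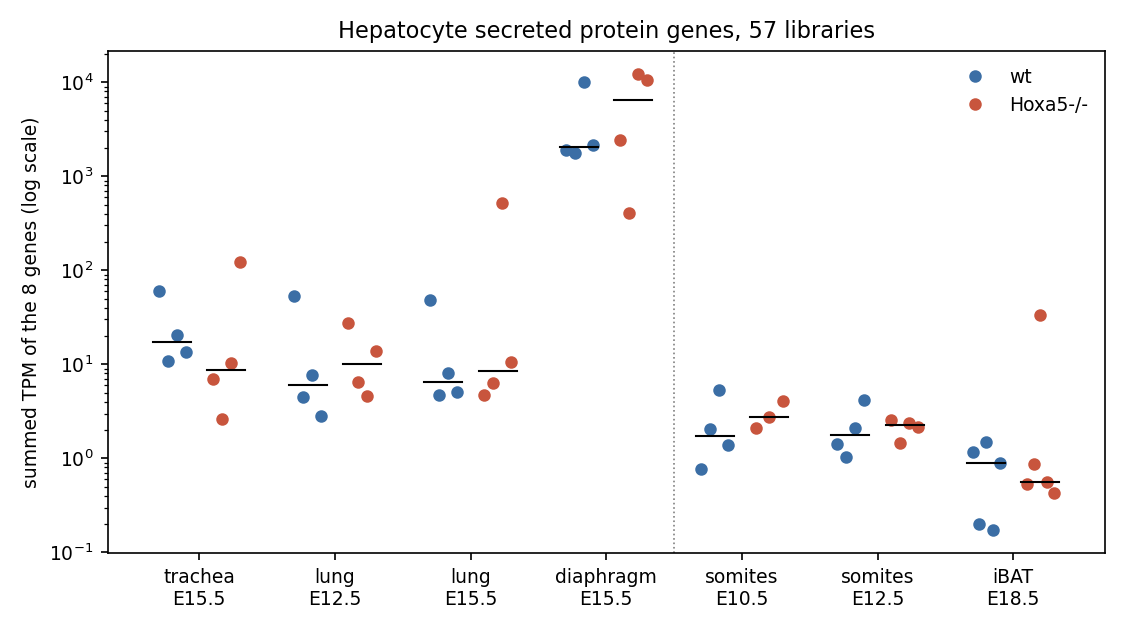
Summed TPM of the 8 genes in each of the 57 libraries (log scale on the y axis) by tissue and stage on the x axis; points are libraries, blue for wt and red for Hoxa5-/-, bars are group medians, and the dotted line separates the sets from the 2 sequencing centres. The 8 diaphragm libraries sit between 408 and 12353 TPM, and single libraries of trachea, lung and iBAT rise above the rest of their group.

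By mean wt level, each of the 8 genes ranked first in diaphragm. The means, with SD over 4 libraries, were 1839 ± 1820 TPM for Alb, 970 ± 1047 for Afp, 359 ± 378 for Apoa1, 318 ± 349 for Apoa2, 247 ± 239 for Ahsg, 188 ± 175 for Ttr, 36.1 ± 35.3 for Fgb and 27.6 ± 30.9 for Apob. The lowest wt diaphragm library was above the highest library of the context ranked next for all 8 genes. Further down the order most neighbours overlapped. For Alb the means were 10.8 TPM in trachea, 7.997 in E15.5 lung, 0.408 in E12.5 somites, 0.326 in E12.5 lung, 0.301 in iBAT and 0.0593 in E10.5 somites, and of these neighbours only E15.5 lung and E12.5 somites did not overlap. For Afp the context ranked second was E12.5 lung (8.30 TPM), followed by trachea (5.03) and E15.5 lung (3.71), whose ranges overlapped each other but not those of somites and iBAT (at most 0.0823 on average). Ttr and Apoa1 also had E12.5 lung in second place, at 2.29 and 3.54 TPM. Apob, at 0.223 TPM or less outside the diaphragm, had E12.5 somites in second place, with every library there holding 13 to 38 counts.

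The carrier proteins accounted for most of the diaphragm signal. Alb was measured at 902, 836, 4566 and 1051 TPM in wt replicates 1 to 4 and at 1124, 184, 5371 and 4940 TPM in the 4 Hoxa5-/- libraries. Wt replicate 3 and Hoxa5-/- replicates 3 and 4 were several times above the others, Hoxa5-/- replicate 2 was the lowest, and the genotypes overlapped. Afp, which is shut down in the liver after birth, was measured at 442, 404, 2539 and 492 TPM in wt and at 594, 103, 3364 and 2614 TPM in Hoxa5-/- libraries. Ttr, the hormone carrier, was measured at 101, 89.4, 450 and 111 TPM in wt and at 114, 20.2, 515 and 495 TPM in Hoxa5-/- libraries. For both genes the same 3 libraries were high and the same library was lowest.

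The apolipoproteins were highest in the same 3 libraries and lowest in the same library. Apoa1, the activator of cholesterol esterification on high-density lipoprotein, was measured at 151, 170 and 190 TPM in wt replicates 1, 2 and 4 and at 925 TPM in wt replicate 3, and at 200, 37.2, 1194 and 945 TPM in Hoxa5-/- libraries. Its smaller partner Apoa2 was measured at 131, 153, 842 and 148 TPM in wt and at 172, 35.4, 1112 and 748 TPM in Hoxa5-/- libraries. Apob, which is needed for lipoprotein particles to be secreted, was far lower per length, at 9.84, 12.4, 73.9 and 14.3 TPM in wt and 15.8, 2.24, 109.1 and 70.3 TPM in Hoxa5-/- libraries. In each of the 3 genes wt replicate 3 lay above Hoxa5-/- replicates 1 and 2 and below Hoxa5-/- replicate 3, so the genotypes overlapped.

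Fgb, the fibrinogen chain, was measured at 18.7, 15.9, 88.9 and 20.99 TPM in wt and at 20.6, 4.23, 107 and 91.2 TPM in Hoxa5-/- libraries. Ahsg, the fetuin gene, was measured at 140, 104, 605 and 141 TPM in wt and at 161, 22.8, 580 and 616 TPM in Hoxa5-/- libraries. Ahsg was the sole member whose highest library was Hoxa5-/- replicate 4, and replicate 3 of that genotype was highest for the other 7.

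**Figure D2:**
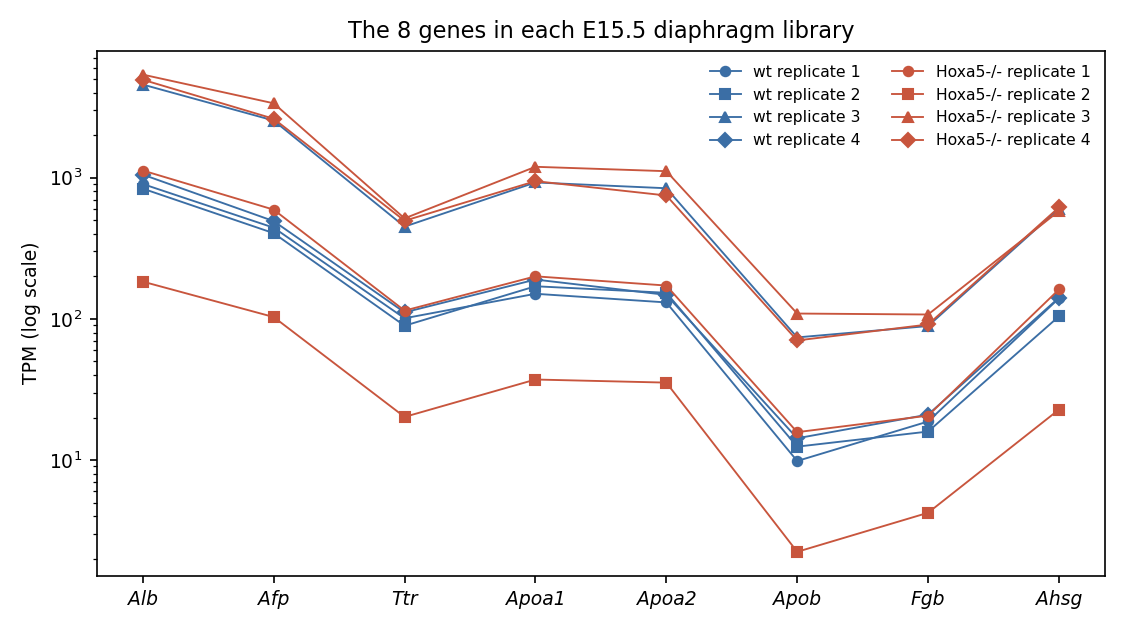
TPM of each of the 8 genes (log scale on the y axis) in the 8 E15.5 diaphragm libraries; each line is a library, blue for wt and red for Hoxa5-/-, with a marker shape for each replicate number. The lines run nearly parallel, with wt replicate 3 and Hoxa5-/- replicates 3 and 4 at the top, Alb there at 4566 to 5371 TPM, and Hoxa5-/- replicate 2 at the bottom, with Alb at 184 TPM.

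The proportions of the 8 transcripts varied little among diaphragm libraries although their sum ran from 408 to 12353 TPM. Alb made up 43.5 to 48.5% of the summed TPM, Afp 22.6 to 27.2%, Apoa1 7.95 to 9.67% and Apoa2 6.81 to 8.999%. Ahsg made up 4.70 to 7.38%, Ttr 4.17 to 5.33%, Fgb 0.859 to 1.04% and Apob 0.520 to 0.883%. The lowest library, Hoxa5-/- replicate 2, had 44.9% Alb and 25.2% Afp, and the highest, Hoxa5-/- replicate 3, had 43.5% and 27.2%. In counts the lowest library still rested on 5705 Alb reads and 214 Fgb reads.

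Outside the diaphragm the proportions varied more, on fewer reads. In the highest E15.5 lung library, Hoxa5-/- replicate 3, Alb made up 54.0% and Afp 20.7% of the sum, and Ahsg 7.33%. Trachea Hoxa5-/- replicate 4 had 38.6% Alb, 26.4% Afp and 12.8% Apoa2. Lung E12.5 wt replicate 1 was unlike these, with 0.0889% Alb (1 read), 47.7% Afp, 19.2% Apoa1, 16.5% Ttr and 14.7% Apoa2. Afp held the greatest share in all 8 E12.5 lung libraries, from 37.1 to 76.4%, whereas Alb did so in all 8 diaphragm libraries and all 8 trachea libraries. In E15.5 lung Alb led in 7 of the 8 libraries, and in Hoxa5-/- replicate 2 Apoa1 held 33.7% against 29.4% for Alb. iBAT Hoxa5-/- replicate 3 had 39.3% Alb and 15.495% Ahsg, but 0.0940% Apob on 4 reads.

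**Figure D3:**
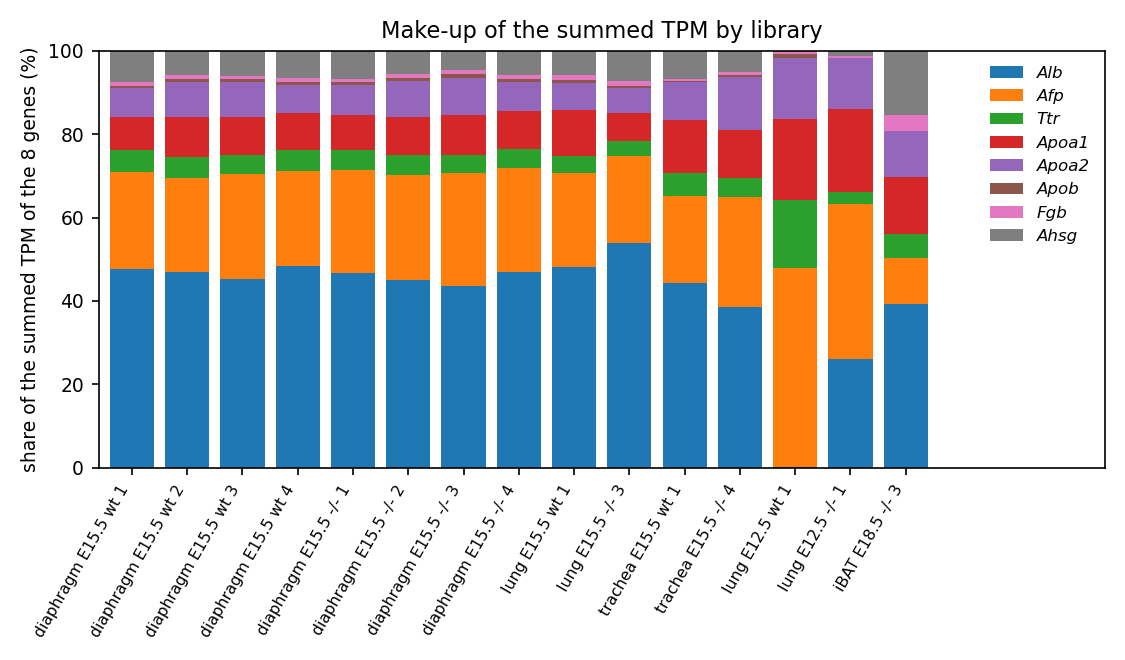
Share of each of the 8 genes in their summed TPM (y axis, percent) for the 15 libraries with a sum of at least 25 TPM (x axis); each colour is a gene. Alb takes 43.5 to 48.5% in the 8 diaphragm libraries and 0.0889% in lung E12.5 wt replicate 1.

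In trachea, Alb was measured at 26.9, 2.86, 8.39 and 5.23 TPM in wt replicates 1 to 4 and at 1.96, 0.652, 4.13 and 47.4 TPM in Hoxa5-/- libraries. Wt replicate 1 and Hoxa5-/- replicate 4 were each the highest of their group, and the genotypes overlapped. Afp was measured at 12.6, 1.34, 3.92 and 2.29 TPM in wt and at 0.938, 0.567, 1.61 and 32.4 TPM in Hoxa5-/- libraries. Ahsg, the fetuin gene, was between 1.30 and 4.18 TPM in wt and between 0.290 and 6.13 TPM in Hoxa5-/- libraries. Apoa1 and Apoa2 reached 14.03 and 15.7 TPM in Hoxa5-/- replicate 4 and were at most 7.80 TPM in the other 7 libraries. Ttr was between 0.107 and 5.56 TPM, and Apob and Fgb were at most 0.627 and 1.02 TPM. Every tracheal library held at least 12 Alb reads.

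In lung at E15.5, Alb was measured at 23.4, 2.37, 4.38 and 1.88 TPM in wt and at 1.80, 1.86, 283 and 4.55 TPM in Hoxa5-/- libraries. The 283 TPM of Hoxa5-/- replicate 3 stood on 9271 reads. That library was also the highest for the other 7 genes, with Afp at 108.8 TPM, Ahsg at 38.5, Apoa1 at 34.6, Apoa2 at 32.4, Ttr at 19.2, Fgb at 5.56 and Apob at 2.48. Wt replicate 1 ranked second for all 8 genes, with Afp at 10.97 TPM and Ahsg at 2.83. In the remaining 6 libraries Afp was between 1.004 and 2.86 TPM and Ahsg was at most 0.466 TPM.

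In lung at E12.5, Afp rather than Alb was the leading transcript, at 25.2, 2.38, 3.48 and 2.13 TPM in wt and 10.3, 3.88, 2.08 and 7.18 TPM in Hoxa5-/- libraries. Alb was held at 1, 3, 19 and 1 reads in wt and 122, 0, 8 and 4 reads in Hoxa5-/- libraries. For the library at 0, a true count of up to 3 reads remained possible. Apoa1 was between 0.559 and 10.1 TPM, and Ttr reached 8.71 TPM in wt replicate 1 and at most 1.72 TPM in the other 7. Ahsg was at 0 in 5 of the 8 libraries and held at most 5 reads.

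Somites held few reads of the 8 genes. Apoa2 at E10.5 had 0, 1, 17 and 1 reads in wt and 6, 8 and 14 reads in Hoxa5-/- libraries, the latter equal to 1.54, 2.002 and 3.56 TPM. At E12.5 it was at 0 in all 4 wt libraries and held at most 2 reads in Hoxa5-/- libraries. Ttr at E12.5 held 7, 5, 1 and 24 reads in wt and 5, 2, 7 and 2 in Hoxa5-/- libraries. Fgb was at 0 in all 8 libraries of that stage and in 6 of the 7 at E10.5. Alb held at most 10 reads in any somite library.

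In iBAT at E18.5, Hoxa5-/- replicate 3 held 281 Alb reads, 114 Afp reads, 104 Ahsg reads, 51 Apoa1 reads, 44 Fgb reads, 21 Ttr reads and 18 Apoa2 reads. Alb was at 13.1 TPM there and at most 0.743 TPM in the other 9 libraries, which held 1 to 14 reads each. Afp was at 0 in 6 of those 9 and Ahsg in 7. Apob was the exception, with 4 reads in that library and at most 3 in the rest.

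Genotype was tested within each context by edgeR's quasi-likelihood test on the counts, over all genes with a mean of at least 1 TPM in either genotype. A gene was called at a Benjamini-Hochberg adjusted p under 0.05 with a fold change of at least 1.5. In diaphragm all 8 genes were tested and 0 were called, where 0.594% of all genes tested were called. Log2 fold changes of Hoxa5-/- against wt ran from 0.51 for Ahsg (SE 0.91) to 0.87 for Apob (SE 1.05), with adjusted p between 0.770 and 0.847 by that test. Alb differed by 0.69 (SE 0.95, adjusted p 0.795) and Afp by 0.82 (SE 0.99, adjusted p 0.771), so each difference was smaller than its error. Without wt replicate 3 the Alb difference was 1.65, while without Hoxa5-/- replicate 2, 3 or 4 it was 1.10, 0.24 or 0.29, and none of these was called. The spread between libraries of one genotype, such as 184 to 5371 TPM for Alb in Hoxa5-/-, left a wide interval around a difference of 0.

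In E15.5 lung 7 of the 8 genes passed the filter, Apob not, and 0 were called against 0.124% of all genes. Their log2 fold changes were 2.32 for Apoa1 (SE 1.19) to 3.53 for Ahsg (SE 1.82), with adjusted p of 0.849 or more in edgeR. These values rested on Hoxa5-/- replicate 3: without it Alb went from 3.15 to -1.35, Afp from 2.92 to -0.67, Apoa1 from 2.32 to -0.24 and Apoa2 from 2.69 to -2.06, and Ttr, Fgb and Ahsg fell under the filter. In trachea 6 genes passed, all but Apob and Fgb, and 0 were called against 0.0156% of all genes, with log2 fold changes from -0.34 (Ttr, SE 0.92) to 0.999 (Apoa2, SE 1.01). Without Hoxa5-/- replicate 4 all 6 were negative, from -0.87 for Apoa2 to -2.43 for Ttr, and without wt replicate 1 the Alb value was 1.28.

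In E12.5 lung 5 genes passed (Alb, Afp, Ttr, Apoa1, Apoa2) and 0 were called against 0.0798% of all genes. Alb differed by 2.69 on the log2 scale (SE 1.47, adjusted p 0.666), and it fell under the filter without Hoxa5-/- replicate 1, while Afp went from -0.50 to 1.16 without wt replicate 1. Apoa2 alone passed in E10.5 somites (0.96, SE 0.92, adjusted p 0.604 in edgeR), with 0.0215% of all genes called. Without wt replicate 3, which held 17 reads, it was called higher in Hoxa5-/- with 3.55 (adjusted p 0.0251 in edgeR). In that fit Apoa2 passed the filter through Hoxa5-/- alone, the group where it was high, so the call is no support for a difference. Ttr alone passed in E12.5 somites (-1.10, SE 0.78, adjusted p 0.999; 0.00529% of all genes called). In iBAT Alb (3.23, SE 1.36), Apoa1 (2.84, SE 1.04) and Ahsg (4.76, SE 1.84) passed the filter and 0 were called against 0.00657% of all genes, with an adjusted p of 0.9999 in edgeR. All 3 iBAT genes passed only through Hoxa5-/- replicate 3, and 0 members were left to test without it.

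At an unadjusted p under 0.05 the edgeR test counted 0 members in trachea, both lung stages, diaphragm and both somite stages. In iBAT it counted 3 of 3 members tested, where 376 of 15212 genes were under that limit. The count in E15.5 lung was 5 of 7 (1041 of 17777 genes) when every library of the table entered a single fit. With no filter beyond 1 count it was 7 of 8 there (1621 of 35455 genes), 1 of 8 in E12.5 lung (2155 of 35039) and 8 of 8 in iBAT (1162 of 34674). A filter of 10 counts gave 6 of 8 in iBAT (603 of 23006 genes), and 0 members were called in each of these fits. In E15.5 lung and iBAT all 8 members were highest in Hoxa5-/- replicate 3, and the alternative fits were not repeated without it. DESeq2 called 0 members in any context, having returned an adjusted p for 8 members in diaphragm, 3 in trachea, 3 in E12.5 lung, 1 in each somite stage and 0 in E15.5 lung and iBAT. The difference between genotype effects was tested as well. In the interaction tests 0 of 8 members differed between diaphragm and E15.5 lung (0.73% of all genes did), 0 of 8 between diaphragm and trachea (0.439%), 0 of 7 between the lung stages (0.0267%) and 0 of 2 between the somite stages (0.0147%). For Alb the differences in genotype effect were -2.47 (SE 1.97), 0.40 (SE 1.63) and 0.56 (SE 3.17) on the log2 scale, in the first 3 of these. At an unadjusted p under 0.05 the count was 0 in each of the 4, and DESeq2 called 0 as well.

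**Figure D4:**
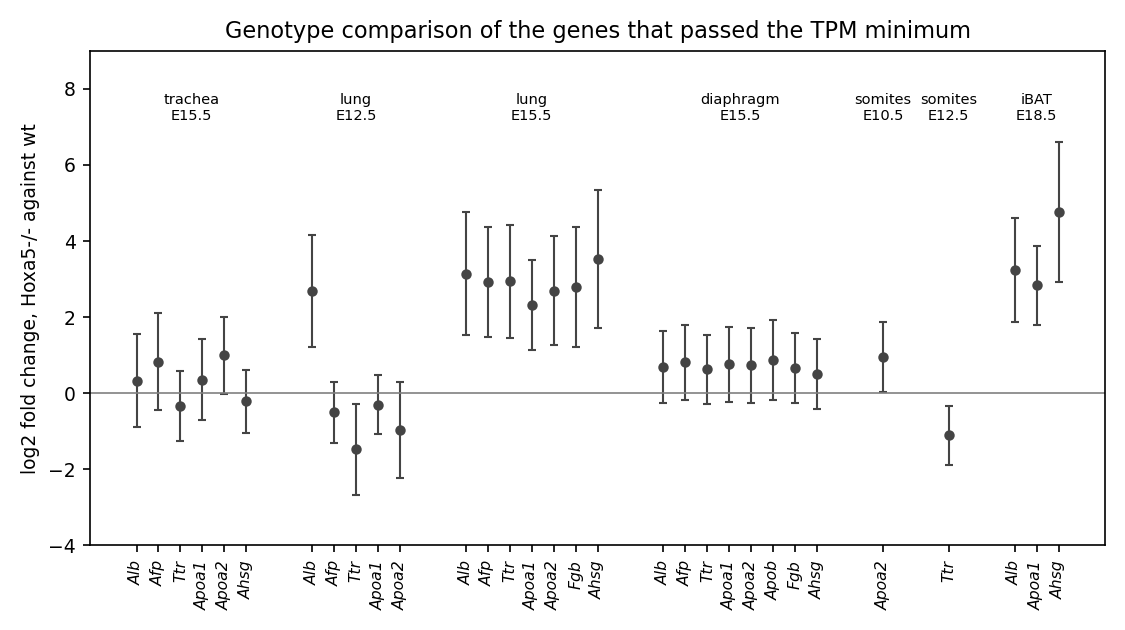
Log2 fold change of Hoxa5-/- against wt (y axis) for each of the 8 genes that passed the TPM minimum, by tissue and stage; points are edgeR estimates and bars are 1 SE. The 8 diaphragm values lie between 0.51 and 0.87 with SE of 0.91 to 1.05, the 7 values of E15.5 lung between 2.32 and 3.53 rest on 1 library, and 0 genes are called.

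Wt tissues were then compared within a sequencing set. Against E15.5 lung, all 8 genes were higher in diaphragm, by log2 fold changes of 7.63 for Fgb (SE 0.92, adjusted p 9.56e-05) to 8.38 for Ahsg (SE 1.02, adjusted p 9.96e-05) in edgeR. Among all 18984 genes tested 36.4% were called and 20.9% were called higher. Ttr, Apob, Fgb and Ahsg averaged under 1 TPM in wt lung and so passed the filter through the diaphragm alone. The calls of these 4, which include both ends of the range given, are no support for a difference. Alb, Afp, Apoa1 and Apoa2 averaged at least 1.26 TPM in wt lung. The Alb value of 8.09 was 7.14 without diaphragm wt replicate 3 and 9.60 without lung wt replicate 1, and all 8 genes were still called. Against trachea all 8 genes were again higher, from 6.78 for Ttr (SE 0.70) to 8.35 for Apob (SE 0.93), where 32.5% of 19730 genes were called and 14.1% were called higher. Apob and Fgb averaged under 1 TPM in wt trachea and passed the filter through the diaphragm alone, so their calls are no support for a difference. Alb differed by 7.70 (SE 0.98, adjusted p 0.000248), by 6.82 without diaphragm wt replicate 3 and by 8.64 without trachea wt replicate 1. These 2 comparisons share the diaphragm libraries.

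From E12.5 to E15.5 in wt lung, Alb was higher at the later stage by 4.65 on the log2 scale (SE 1.08, adjusted p 0.00491), the 1 member called of 5 tested, against 24.6% of all genes called and 15.4% called higher. Alb passed the filter through E15.5 alone, the stage where it was high, so its call is no support for a difference. Its value was 3.17 without lung E15.5 wt replicate 1 and 6.49 without lung E12.5 wt replicate 3, called in both. By level, Alb was at least 1.88 TPM in the 4 wt libraries of E15.5. In the 4 of E12.5 it was at most 1.07 TPM, on 1 to 19 reads, so the stages did not overlap. The other 4 genes had estimates in the opposite direction, with Afp at -1.18 (SE 0.96), Ttr at -1.82 (SE 1.32), Apoa1 at -0.86 (SE 0.89) and Apoa2 at -0.78 (SE 1.11), and adjusted p of 0.275 or more. Afp went to 0.47 without lung E12.5 wt replicate 1 and was called lower, at -2.73 (adjusted p 0.0378), without lung E15.5 wt replicate 1. Without lung E15.5 wt replicate 4, Ahsg entered the test and was called higher (3.63, adjusted p 0.0483 in edgeR). It passed the filter through E15.5 alone, the stage where it was high, so that call is no support for a difference. The order of the relatives Alb and Afp differed between stages: Afp exceeded Alb in TPM in all 8 E12.5 lung libraries, and Alb exceeded Afp in all 8 E15.5 lung libraries. Their ratio was not tested.

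Between wt somite stages 2 members passed the filter, each through the stage where it was high alone, so that their count says nothing beside the 42.6% of all genes called, 24.1% higher and 18.4% lower. Both were called. Ttr was higher at E12.5 by 2.28 (SE 0.90, adjusted p 0.0397), a difference that lost its call without E10.5 wt replicate 1, 3 or 4 (adjusted p 0.0698, 0.0921 and 0.0850) and could not be tested without E12.5 wt replicate 4, which held 24 reads. Apoa2 was lower at E12.5 with the same adjusted p of 0.0397, and it rested on the 17 reads of E10.5 wt replicate 3, without which it fell under the filter. Its adjusted p was 0.0577 to 0.0674 without any 1 of the E12.5 wt libraries. Since all E12.5 wt libraries were at 0 and 3 of the E10.5 libraries held 0 or 1 read, no fold is given. In iBAT against E12.5 somites Ttr was the single member tested, having passed the filter through the somites alone, and it was lower in iBAT by 2.66 on the log2 scale (SE 1.05, adjusted p 0.0299), against 66.3% of all genes called and 35.3% called lower. That call was lost without iBAT wt replicate 1, 4 or 5 (adjusted p 0.0657, 0.0610 and 0.0735), and Ttr fell under the filter without somite wt replicate 4.

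Other genes of the hepatocyte programme were read from fixed lists. In the wt comparison of diaphragm with E15.5 lung, 25 other plasma protein genes were tested, and 23 were called higher and 1 lower in diaphragm. Their median log2 fold change was 6.59 against -0.0099 over all genes, of which 36.4% were called and 20.9% were called higher. A listed gene that averaged under 1 TPM in wt lung entered through the diaphragm alone, so its call is no support for a difference. Of 16 hepatocyte enzyme and receptor genes 11 were called higher and 1 lower (median 6.08). The 12 liver transcription factor genes were divided, with 4 called higher and 6 lower (median -0.72). Hnf4a, a nuclear receptor central to hepatocyte identity, was higher in diaphragm by 7.23 (SE 0.98), whereas Cebpa, shared by lung and fat, was lower by 2.14 on the log2 scale (SE 0.43). Of 18 genes for lipoprotein assembly, lipases and receptors 10 were called higher and 3 lower (median 0.88), and of 14 erythroid genes 6 were called higher and 0 lower (median 0.43). All 8 skeletal muscle genes were called higher (median 11.90).

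Within diaphragm these lists moved with the 8 genes to different degrees. The sum over the other plasma protein genes was 839, 827, 4393 and 937 TPM in wt replicates 1 to 4 and 1027, 222, 5719 and 4403 TPM in Hoxa5-/- replicates 1 to 4. Ranked by this sum, the 8 libraries stood in the same order as by the sum of the members. Trf, the transferrin gene that carries iron in plasma, ran from 62.5 TPM in Hoxa5-/- replicate 2 to 1259 TPM in Hoxa5-/- replicate 3. Hepatocyte enzyme and receptor genes summed to 29.4 TPM in the lowest library and 310 to 404 TPM in the 3 highest. Hnf4a was at 0.889 TPM in Hoxa5-/- replicate 2, at 19.1, 29.5 and 16.5 TPM in wt replicate 3 and Hoxa5-/- replicates 3 and 4, and between 2.17 and 3.76 TPM in the remaining 4. Erythroid genes, which are made in the fetal liver but also carried by blood in every tissue, summed to 6223 TPM in the lowest library and to 30261, 33956 and 20911 TPM in the 3 highest, against 8741 to 12194 TPM in the other 4. Skeletal muscle genes summed to 21947, 17920 and 30417 TPM in the 3 highest libraries and to 25852 to 40400 TPM in the other 5.

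Likeness was measured as Pearson's r between a gene's log2(TPM + 1) and the mean log2(TPM + 1) of the 8 members over the 8 diaphragm libraries. These fall into a high, a middle and a low set, so r is given as a description, with no test. It was 0.9 or more for 24 of 25 other plasma protein genes, 13 of 16 enzyme and receptor genes, 11 of 14 erythroid genes, 5 of 17 lipoprotein genes, 3 of 13 liver transcription factors, Hnf4a among them, 1 of 6 sinusoidal and Kupffer cell genes and 0 of 8 muscle genes, against 2.92% of all 17441 genes. Among the globins the fetal and adult chains such as Hbb-bs (0.968) followed the members, and the 3 embryonic chains were lower, with Hbb-y at 0.173, Hba-x at 0.211 and Hbb-bh1 at 0.618. The 10 genes most like the members in diaphragm were Trf, Plg, Kng1, Fga, Fgg, Vtn, C3, Ambp, Hpx and Serpina1b, from 0.999 down to 0.997, and all 10 were on the plasma protein list. Fga and Fgg encode the partner chains of Fgb in fibrinogen. Fga was at 6.56 TPM in Hoxa5-/- replicate 2 and 188 TPM in Hoxa5-/- replicate 3, and Fgg at 5.54 and 143 TPM, close to the 4.23 and 107 TPM of Fgb.

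**Figure D5:**
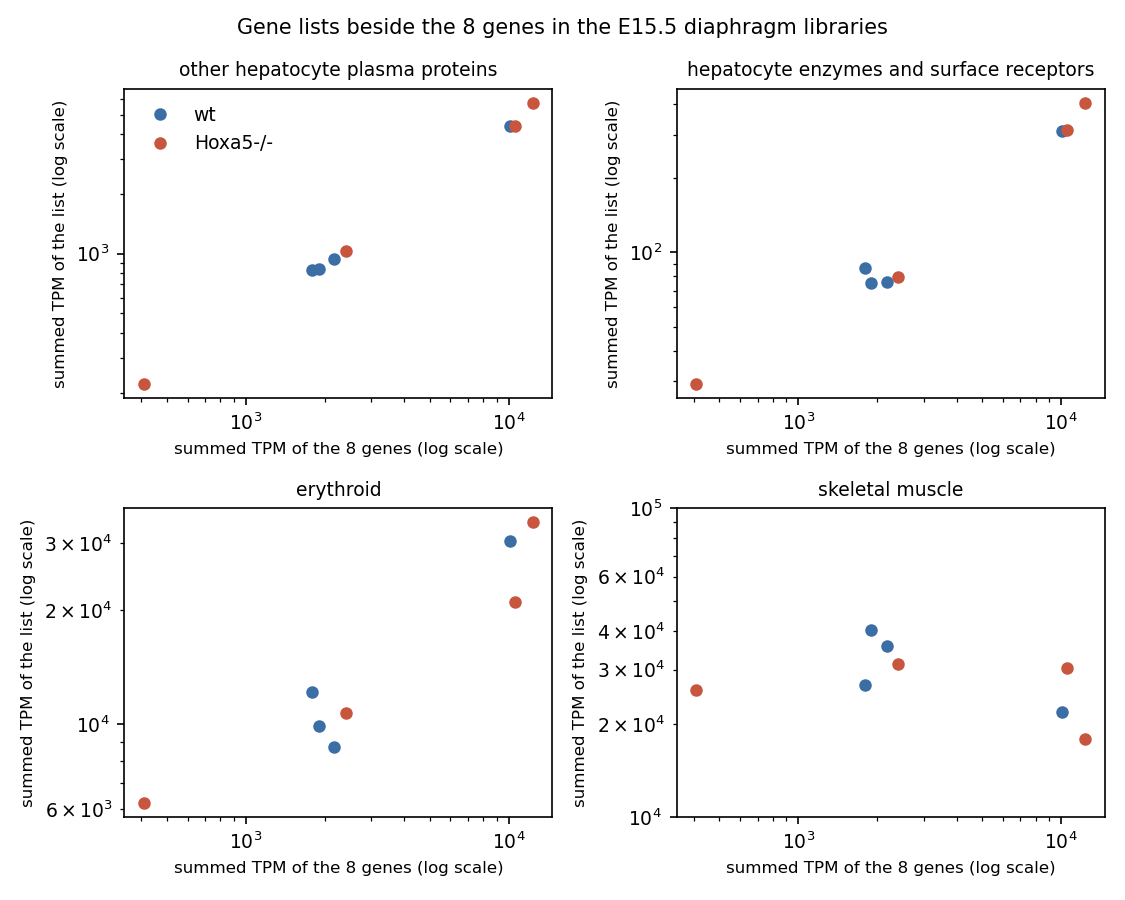
Summed TPM of 4 gene lists (y axes, log scale) against the summed TPM of the 8 genes (x axes, log scale) in the 8 E15.5 diaphragm libraries, blue for wt and red for Hoxa5-/-. The plasma protein sum rises from 222 to 5719 TPM with the 8 genes and the erythroid sum from 6223 to 33956 TPM, while the muscle sum lies between 17920 and 40400 TPM and is lowest in the library with the most of the 8 genes.

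Markers of other tissues moved in 2 of the high libraries. In diaphragm wt replicate 3 the 6 lung epithelial genes summed to 518 TPM, against 52.4 to 74.8 TPM in the other 7 diaphragm libraries, with Sftpc at 322 TPM and at most 11.8 TPM elsewhere. In diaphragm Hoxa5-/- replicate 3 the 6 cartilage genes summed to 412 TPM, against 17.1 to 37.2 TPM elsewhere, with Col2a1 at 242 TPM. Hoxa5-/- replicate 4 was high in the 8 genes with 57.8 TPM of lung epithelial and 20.98 TPM of cartilage transcripts, within the range of the low libraries. The part of attached liver, lung or cartilage tissue in any level was not tested.

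Over all 32 respiratory libraries the 9 genes most like the 8 members were Fga (r 0.995), Serpina6, Apoh, Serpinf2, Kng1, Fgg, Plg, Gc and Ambp (0.981). All 9 were on the plasma protein list. Since diaphragm and the other tissues form separate clusters, these values mainly order the tissues. Over the 25 somite and iBAT libraries the highest was Fasn with 0.542, and 0 of the 10 genes listed there were on a liver list.

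The single high libraries outside the diaphragm differed in how far other liver genes went with them. In lung E15.5 Hoxa5-/- replicate 3, all 8 members had their highest TPM of that context. So did 25 of 28 other plasma protein genes and 11 of 17 enzyme and receptor genes, against 14.1% of all genes. Only genes with at least 10 counts in a context entered these shares, and a gene could reach 10 through the high library alone. The libraries were singled out by the members, so the counts of members that follow are no result beside the share of all genes. The counts over the lists are a description, with no test. Fga was at 9.49 TPM there and at most 0.923 TPM in the other 7 lung libraries, and Hnf4a at 0.489 TPM against at most 0.0872. In trachea Hoxa5-/- replicate 4 all 8 members, 13 of 27 plasma protein genes, 5 of 15 enzyme genes and 0 of 15 transcription factors were highest, against 11.7% of all genes, and Hnf4a was at 0.148 TPM against 0 to 0.349 elsewhere. In iBAT Hoxa5-/- replicate 3 all 8 members, 9 of 22 plasma protein genes and 2 of 11 enzyme genes were highest, against 4.89% of all genes. Fga held 26 reads and Fgg 28 reads in that iBAT library, against at most 4 in the others, while Hnf4a held 1 read and erythroid genes were highest there in 0 of 14. In lung E12.5 wt replicate 1, where Afp led and Alb held 1 read, 6 of 8 members and 8 of 23 plasma protein genes were highest, with 0 of 14 erythroid genes and 1 of 8 yolk sac and intestine genes, against 10.2% of all genes. The yolk sac and intestine list summed to 22.6 TPM there and to 20.7 to 29.6 TPM in the other E12.5 lung libraries. In lung E12.5 Hoxa5-/- replicate 1, where Alb was at 7.26 TPM, 14 of 14 erythroid genes were highest, with a sum of 150139 TPM against 20615 to 40732 TPM in the others. The cause of these single high libraries was not tested.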

How the data were processed

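Raw counts and transcript abundances (TPM) were read from the deposited tables for 57 libraries. After trimming (Trim Galore 0.6.5), the authors aligned reads to GRCm39 with STAR 2.7.9a, counted uniquely mapped reads with featureCounts 2.0.3 against an Ensembl annotation curated for Hox genes, and deposited these counts per gene. The authors also deposited TPM, which divide counts by gene length and scale each library to the same sum. TPM recomputed from the counts differed by at most 2.9e-11. Libraries were made from polyA-selected RNA. Unique mapping can lower the level of genes with near-identical copies. For somites and iBAT, 2573 gene names use another separator, which was replaced. Total counts were 18369905 to 72991481 per library. The floor given for a library at 0 covers counting error only, whereas the SE and SD also hold the spread between libraries.

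Counts were fitted with edgeR 4.0.16 (quasi-likelihood test, TMM scaling) in R 4.3.3, within each context, over genes with a mean of at least 1 TPM in either group. P-values were adjusted by Benjamini-Hochberg over all genes tested, and a call required 0.05 as the limit of the adjusted p, with a minimum fold change of 1.5, or the adjusted p alone for interactions. Wt tissues were fitted in the same way, within a sequencing set. Alternatives were DESeq2 1.42.0, its size factors in edgeR, a filter on 10 counts instead of TPM, all genes with at least 1 count, no fold minimum, every library of a table in a single fit, a replicate block and leaving out each library. The fits were tested on simulated data. Summaries used pandas 2.3.3 and numpy 2.4.6 under Python 3.11.15, and plots matplotlib 3.10.9.

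The study describes the libraries as biological replicates. In iBAT the same-numbered wt and Hoxa5-/- libraries share a number in their names. Replicates 4 and 5 of both genotypes share the same number, so the names pair only replicates 1 to 3. The deviations from their group means correlated in all 5 pairs (0.128 to 0.396). The values reported for iBAT are from the fit without the block. Blocked values, for Ahsg and as the median over members, are given under the alternatives. The members and gene lists were chosen with earlier results of these data known. The text names the 8 members in every context, genes of the lists that were called or had the highest mean TPM, and the 10 genes most like the members in 3 sets of libraries. Hbb-y, Hba-x, Hbb-bh1, Fgg, Hnf4a and Cebpa were singled out after their values were seen. Some items are not reported here.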

Additional observations from a re-analysis of the deposited data

Results flagged for a closer look

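A library was singled out where its gap to the nearest other library of its group, divided by the range of the group, passed Dixon's 95% critical value. This happened in 58 of 114 groups, 52 of 101 for single genes and 6 of 13 for the sum. Chance gives about 1 in 20 only for normally distributed values. TPM were used without a log and many groups lie near 0, so the share flagged cannot be set against that rate. Where a single library held reads and the rest were at 0, as for Fgb in iBAT wt, the ratio was 1 by construction. The groups are also not independent since the same few libraries recur.

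Diaphragm wt replicate 3 stood apart for all 8 genes, with 10090 TPM in sum, Alb at 4566, Afp at 2539, Ttr at 450, Apoa1 at 925, Apoa2 at 842, Apob at 73.9, Fgb at 88.9 and Ahsg at 605 TPM. Lung E15.5 Hoxa5-/- replicate 3 did so too, with 525 TPM in sum, Alb at 283, Afp at 108.8, Ttr at 19.2, Apoa1 at 34.6, Apoa2 at 32.4, Apob at 2.48, Fgb at 5.56 and Ahsg at 38.5 TPM. Trachea Hoxa5-/- replicate 4 stood apart with 123 TPM in sum, Alb at 47.4, Afp at 32.4, Ttr at 5.56, Apoa1 at 14.03, Apoa2 at 15.7, Apob at 0.627, Fgb at 1.02 and Ahsg at 6.13 TPM. iBAT Hoxa5-/- replicate 3 stood apart for every gene but Apob, with 33.5 TPM in sum, Alb at 13.1, Afp at 3.71, Ttr at 1.94, Apoa1 at 4.52, Apoa2 at 3.67, Fgb at 1.27 and Ahsg at 5.19 TPM.

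Lung E15.5 wt replicate 1 stood apart with 48.6 TPM in sum, Alb at 23.4, Afp at 10.97, Ttr at 1.99, Apoa1 at 5.45, Apoa2 at 3.13 and Ahsg at 2.83 TPM. Lung E12.5 wt replicate 1 did so with 52.8 TPM in sum, Afp at 25.2, Ttr at 8.71, Apoa1 at 10.1, Apoa2 at 7.78 and Apob at 0.552 TPM, but not for Alb. In E12.5 lung Alb singled out other libraries, wt replicate 3 at 1.07 TPM and Hoxa5-/- replicate 1 at 7.26 TPM, and the latter also held Ahsg at 0.317 TPM. Trachea wt replicate 1 stood apart for Apoa1 at 7.80 TPM. Libraries with 1 to 17 reads of the gene gave the rest: Apoa2 at 4.31 and Fgb at 0.107 TPM in E10.5 somite wt replicate 3, Apoa1 at 0.916 TPM in E12.5 somite wt replicate 3, Apoa1 at 0.484 TPM in iBAT wt replicate 1, and Fgb at 0.0326 and Ahsg at 0.170 TPM in iBAT wt replicate 3.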

How the results depend on the processing

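Leaving out a library, 441 of 481 log2 fold changes of members kept their direction and side of the threshold, 10 lost a call, 2 gained one and 28 changed sign. Under the other alternatives 289 of 298 did, with 1 lost, 2 gained and 6 changed in sign. Neither total holds fits in which the gene was no longer tested. Missing for this reason are, among others, the values without Hoxa5-/- replicate 3 of Ttr, Fgb and Ahsg in E15.5 lung. The same holds for Alb, Apoa1 and Ahsg in iBAT. All 8 genes ranked highest in wt diaphragm under every alternative run for that order. Without 1 library, genotype values ranged in trachea from -2.25 to 1.28 for Alb, -2.25 to 1.79 for Afp, -2.43 to 0.063 for Ttr, -1.90 to 1.20 for Apoa1, -0.87 to 1.64 for Apoa2 and -1.71 to 0.17 for Ahsg. In E12.5 lung they ranged from -1.06 to 1.16 for Afp, -0.94 to 1.11 for Apoa1 and -2.23 to 1.84 for Apoa2, and in E15.5 lung from -1.35 to 4.66 for Alb, -0.67 to 4.48 for Afp, -0.24 to 3.69 for Apoa1 and -2.06 to 3.74 for Apoa2. Between wt lung stages they ranged from 3.17 to 6.49 for Alb, -2.73 to 0.47 for Afp, -2.25 to 0.54 for Apoa1 and -1.83 to 2.03 for Apoa2. The Alb difference in genotype effect ranged from -3.97 to 2.13 (diaphragm and lung), -0.56 to 2.95 (diaphragm and trachea) and -4.02 to 4.09 (lung stages). Members called ranged from 0 to 1 by genotype in E10.5 somites, 1 to 2 between wt lung stages, 0 to 2 between wt somite stages and 0 to 1 for wt iBAT against somites.

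DESeq2 called 3 members in wt diaphragm against lung and 4 against trachea, which were all those given an adjusted p. With a filter of 10 counts replacing that on TPM, 2 members were called in wt iBAT against somites (Ttr, Apob), and 3 of 7 tested in place of 2 of 2 between wt somite stages (Alb, Ttr, Apoa2). With a replicate block, 3 were called between wt lung stages (Alb, Afp at -1.14 with adjusted p 0.000928, Ttr at -1.67 with adjusted p 0.0402) and 0 in wt iBAT against somites (Ttr, adjusted p 0.0746). The block turned the genotype values in trachea to -1.02 for Alb, -0.78 for Afp and -0.59 for Apoa1, in E12.5 lung to 0.030 for Afp and 0.086 for Apoa1, and the Alb difference between lung stages to -1.11. In iBAT the replicate block gave 4.68 for Ahsg (adjusted p 0.309 in edgeR) and 0 calls of members. The median over the 3 members tested was 2.55 with this block and 3.23 without it. A block by the number in the names gave 2.55 and 0 calls of members as well. Outside iBAT not every pair correlated above 0.1, and the numbers were not taken to pair the libraries. In diaphragm, pairs 1, 2 and 3 correlated at 0.462, 0.458 and 0.633, each best with its own number, and pair 4 at -0.0523. The labels give no pairing there, and the members and genes like them enter these correlations. Whether same-numbered diaphragm libraries belong together was not tested. The correlations were -0.196 to 0.677 in E15.5 lung, -0.0932 to 0.494 in trachea, -0.239 to 0.0459 in E12.5 lung, -0.0965 to 0.0526 in E10.5 somites and -0.0683 to 0.393 in E12.5 somites. In diaphragm and these 5 contexts, in that order, the block called 358, 104, 1, 4, 0 and 2 of all genes, where the fit without it called 107, 22, 3, 14, 4 and 1, and DESeq2 called 406, 83, 52, 81, 18 and 2. One fit for all libraries of a table called 355, 38, 40, 18, 28 and 2, and no filter beyond 1 count 196, 29, 4, 32, 147 and 10. In iBAT edgeR called 1, the block 2, DESeq2 4, the fit of all libraries 3 and no filter 6. With the filter of 10 counts 1 gene was called in trachea and 6 in E10.5 somites. For interactions DESeq2 called 314, 378, 18 and 17 genes, the block 438, 182, 0 and 1, and edgeR 142, 89, 5 and 3. The causes of these changes were not tested.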
